A study of Mus musculus with 9 samples.

Results

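The genes described here are 47 genes of neuronal calcium handling, taken by symbol from the count table of 55536 mouse genes. They comprise 8 pore-forming and 7 auxiliary subunits of voltage-gated calcium channels, 3 γ subunits that act as partners of AMPA receptors, 5 calcium pumps and 3 sodium-calcium exchangers. They further comprise 6 release channels of the intracellular store, 8 calmodulin-dependent kinases, 2 calmodulin genes, 3 calcineurin subunits and 2 neuronal calcium sensors. All 47 symbols were found, and all 47 passed the filter on low counts. The lowest count of any of them in any library was 13.

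RNA of the mouse hippocampus was sequenced in 9 libraries to compare hAPP-J20 mice of 15 weeks (pre-plaque) with those of 24 weeks (post-plaque). Transgenic animals (Tg, genotype hAPP-J20) gave 3 libraries at 24 weeks and 3 at 15 weeks, and non-transgenic animals (nTg, genotype WT) gave 2 libraries at 24 weeks and 1 at 15 weeks. In the J20 line a human amyloid precursor protein with mutations of familial Alzheimer's disease is expressed mainly in neurons, from a PDGF promoter. A batch label is given too. It follows the age in every library, and the pair cannot be told apart. A name such as Tg_24w_3 gives genotype, age in weeks and replicate, and values of nTg are given in the order nTg_24w_1, nTg_15w_2 and nTg_24w_3. Replicates are labelled biological, but no label ties each one to a separate animal. The p-values thus cover only the spread among these libraries, which may be technical in part.

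Calcium enters neurons through voltage-gated channels, whose pore subunit sets the voltage range and whose β and α2δ subunits govern how many channels reach the membrane. Ryanodine receptors and inositol trisphosphate receptors release calcium from the endoplasmic reticulum, while pumps and sodium-calcium exchangers remove it from the cytosol. Calmodulin passes the signal on to kinases such as CaMKII, the most studied kinase of hippocampal synaptic plasticity, and to the phosphatase calcineurin. Altered calcium signalling has long been studied in models of amyloid disease.

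Total counts ranged from 12733452 in Tg_24w_3 to 21529266 in Tg_15w_3, and no pair of libraries held identical values. Counts are of mouse genes, so the human transgene could not be used to check the Tg and nTg labels. The 10 pan-neuronal markers summed to between 6549 and 7952 CPM (counts scaled to library size), and no dentate granule, CA1 or CA3 marker stood at 0 in any library. Nor did any measured marker of striatum (9 of 10 measured), thalamus (9 of 10), neocortex, choroid plexus or blood. Only markers that passed the filter on low counts were looked at, which makes a 0 unlikely. Detection of the markers thus does not tell hippocampus from its neighbours. Choroid plexus markers summed to between 1846 and 6861 CPM. Levels within 1 gene are given below as CPM scaled by TMM factors, and levels between genes as the deposited TPM, which are corrected for exon length. The libraries are of bulk tissue, in which fewer cells of a type and less RNA per cell cannot be told apart. For 7 of the 47 genes (Cacna1c, Cacna1d, Cacng2, Slc8a3, Ryr3, Camk1 and Ppp3cb) a gene on the opposite strand with over 1 CPM overlaps their span from start to end, introns included. Whether exons overlap was not checked. The strand setting of the counting is not given in the sources used here, so any reads from shared exons could not be told apart.

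Levels of the 47 genes spanned 6165-fold on the TPM scale. The calmodulin gene Calm2 was highest at 3145 ± 389 TPM (SD, n = 9), followed by Calm3 at 1697 ± 331, the calcium sensor gene Hpca at 1192 ± 199 and the CaMKII α gene Camk2a at 903 ± 132. The lowest Calm2 value lay above the highest of Calm3, whereas the ranges of Calm3 and Hpca overlapped, as did those of Hpca (849 to 1507) and Camk2a (662 to 1077). The sensor gene Vsnl1 (659 ± 68.5) and the calcineurin B gene Ppp3r1 (616 ± 51.7) came next and overlapped with one another. At the other end stood Itpr3, an inositol trisphosphate receptor, at 0.51 ± 0.16 TPM and Ryr1, the ryanodine receptor known best from skeletal muscle, at 1.16 ± 0.53. There were 11 genes above 100 TPM, 25 between 10 and 100, 10 between 1 and 10, and 1 below 1.

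**Figure D1:**
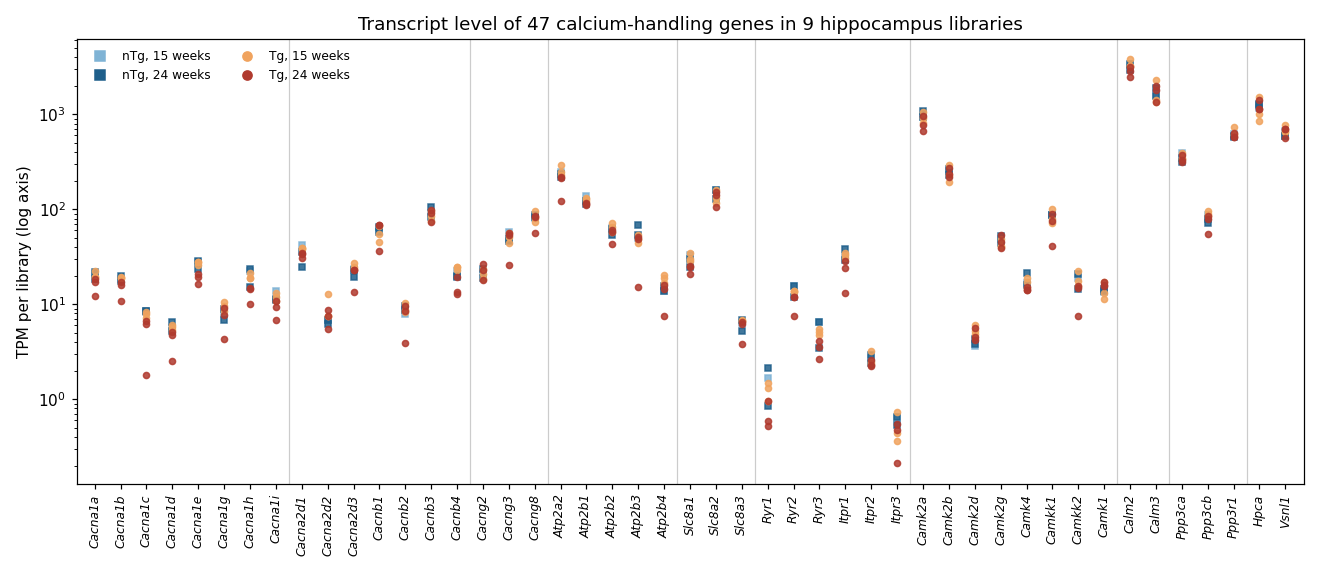
Deposited TPM (log axis) of the 47 genes in each of the 9 libraries, ordered by role, with thin lines between roles. Squares are nTg and circles Tg; calmodulin, Hpca and Camk2a lie highest and Itpr3 and Ryr1 lowest, and the circle of a 24-week Tg library lies below the rest for genes such as Cacna1c and Atp2b3.

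Differences between groups were tested by edgeR (quasi-likelihood), and p-values were adjusted over all genes after Benjamini and Hochberg. The threshold was 0.05. None of the 47 genes passed it in any of 5 comparisons. Over both ages, Tg against nTg, the test called 0 of 17457 genes (0%), and Tg at 15 weeks against nTg called 0 (0%). Tg at 24 weeks against nTg called 23 genes (0.132%), Tg at 24 weeks against Tg at 15 weeks called 6 (0.0344%), and the interaction of genotype and age called 0 of 19574 (0%). DESeq2 called none of the 47 genes over both ages, at 15 weeks or in the interaction. At 24 weeks it called Ryr1 as lower (DESeq2 adjusted p = 0.0488), among 198 of 34937 genes in all. Between the ages in Tg it called Cacna1e (DESeq2 adjusted p = 0.0445) and Cacnb4 (DESeq2 adjusted p = 0.0493) as lower, among 262 of 34937. The comparisons share libraries: the same 3 nTg libraries enter the first 3, and the 24-week Tg libraries enter the comparison of ages as well. At 15 weeks and at 24 weeks, Tg of that age was set against nTg pooled over both ages. Neither comparison is thus matched for age or batch, and most of the nTg libraries are of 24 weeks.

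At an unadjusted p under 0.05, a looser mark given as a description, the counts were as follows. Over both ages 4 of the 47 genes met it, against 5.39% of all genes: 1 was higher (2.55% of all genes) and 3 were lower (2.84%). At 15 weeks 3 met it, or 6.38%, against 3.29% of all genes, and all 3 were higher (1.32% of all genes higher, 1.97% lower). At 24 weeks 10 met it, or 21.3%, against 13% of all genes: 2 were higher (7.68%) and 8 lower (5.34%). Between the ages in Tg 12 met it, or 25.5%, against 15.2% of all genes, and all 12 were lower (5.57% of all genes lower, 9.58% higher). The interaction gave none, against 2.08% of all genes (0.93% higher, 1.15% lower).

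These counts moved both ways with single libraries. Without Tg_24w_2 they rose to 14 at 24 weeks (29.8%, against 14.3% of all genes) and 17 between the ages (36.2%, against 16.1%). Without Tg_24w_1 they rose to 12 (25.5%, against 16.8%) and 14 (29.8%, against 18.6%). Other libraries lowered them. At 24 weeks the 10 genes became 4 (8.51%, against 8.03% of all genes) without nTg_15w_2 and 5 (10.6%, against 12.2%) without nTg_24w_3. They became 1 in the 24-week batch alone (2.13%, against 3.92%). In a test with an offset for exon length, chosen after seeing the data, they became 4 (8.51%, against 10.6%). Between the ages in Tg the 12 became 4 (8.51%, against 7.95%) without Tg_15w_2, 7 (14.9%, against 8.47%) without Tg_15w_1 and 5 (10.6%, against 12% of all genes) with the length offset. Over both ages the 4 became 1 without nTg_24w_3 (2.13%, against 5.54% of all genes) and 2 without Tg_15w_3 (4.26%, against 4.14%). At 15 weeks the 3 became 1 without Tg_15w_3 (2.13%, against 2.7%). Tg_24w_3 and nTg_24w_1, the libraries that stood apart, were also left out together. The counts were then 7 over both ages (14.9%, against 6.88% of all genes) and 6 at 15 weeks (12.8%, against 5.26%). They were 12 at 24 weeks (25.5%, against 13.9%) and 14 between the ages (29.8%, against 16.6%). For the interaction only 1 nTg library per age was left, so no count is given. The median log2 difference of the listed genes was −0.09 there, against −0.02 over all genes.

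Median log2 differences of the 47 were −0.05 over both ages, 0.02 at 15 weeks, −0.09 at 24 weeks, −0.22 between the ages in Tg and −0.11 in the interaction. The medians of all genes tested were 0.02, 0.00, 0.03, 0.02 and 0.00 in the same order.

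Groups were also compared by whether their libraries overlapped. Over both ages 2 of the 47 genes, Camk2d and Vsnl1, were higher in each of the 6 Tg libraries than in each nTg library, and none was lower throughout (2.33% of all genes did not overlap, 1.12% higher and 1.2% lower). At 15 weeks 6 were higher throughout (Camk2d, Vsnl1, Cacna2d2, Cacna2d3, Atp2b4 and Ppp3r1), against 4.85% of all genes. Camk2g alone was lower throughout, against 5.69%, and 1839 genes in all did not overlap (10.5%). At 24 weeks 3 were higher throughout (Camk2d, Vsnl1 and Camk1) and 3 lower (Cacna1c, Cacna1e and Itpr1), against 16.9% of all genes (9.72% higher, 7.14% lower). Between the ages in Tg 17 of the 47, or 36.2%, were lower throughout at 24 weeks, against 10.2% of all genes. Camk2g alone was higher throughout, against 10.6%, and 20.8% of all genes did not overlap.

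**Figure D2:**
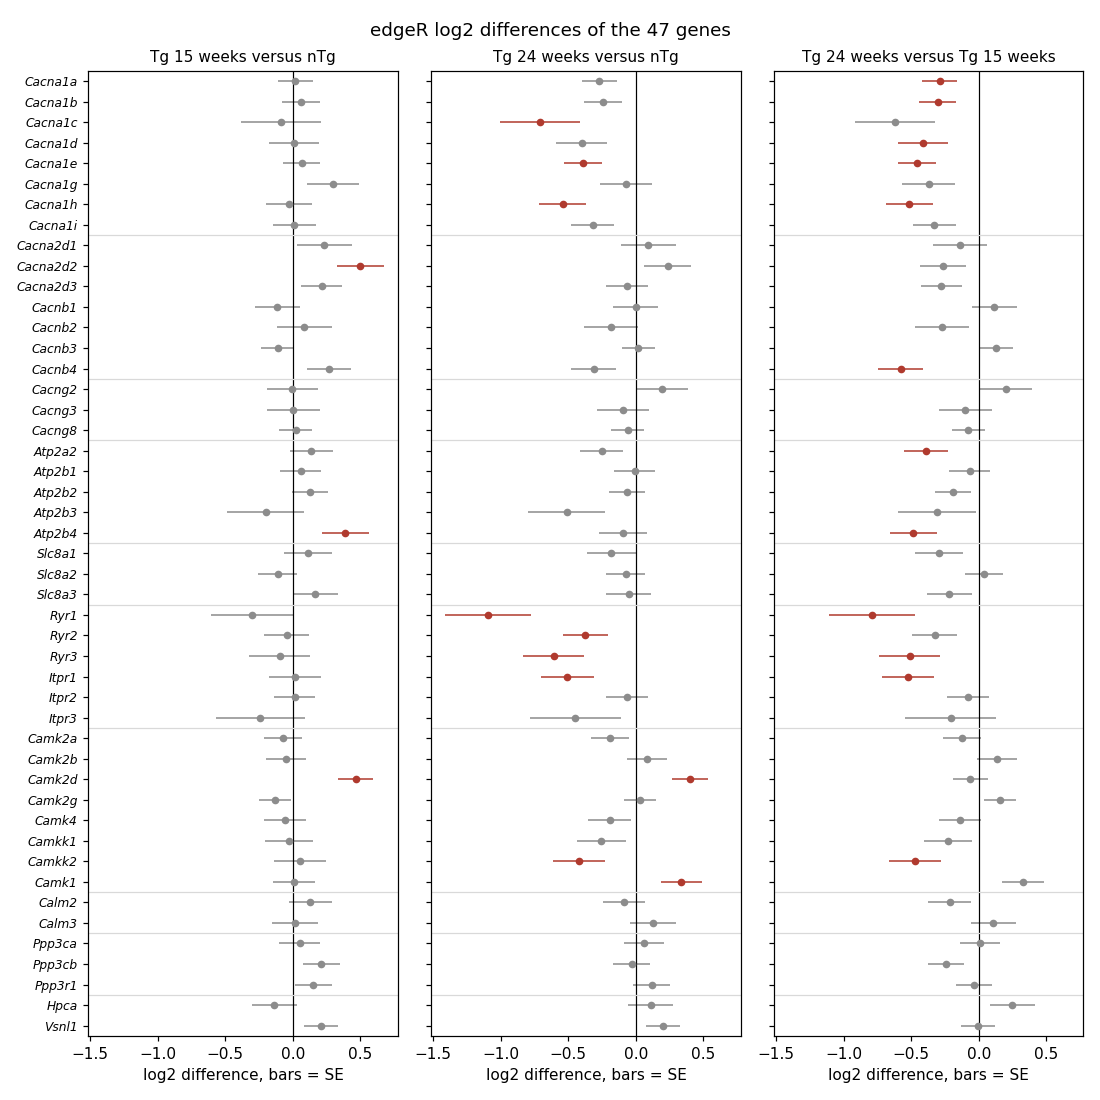
edgeR log2 differences (points) with SE (bars) of the 47 genes at 15 weeks against nTg, at 24 weeks against nTg and between the ages in Tg. Red marks an unadjusted p under 0.05 and grey the rest; none passed the adjusted threshold, and all 8 pore subunits and all 6 release channels lie left of 0 in the middle and right panels.

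Among pore-forming subunits, Cacna1e, which forms the R-type channel, was the most abundant per length at 24.1 ± 4.46 TPM and held 22.1% of the summed TPM of the 8 genes, ranging from 19.5% to 25.2%. Cacna1a of the P/Q-type channel (18.9 ± 3.01 TPM), the T-type gene Cacna1h (17.7 ± 4.41) and Cacna1b of the N-type channel (17.5 ± 2.78) followed, with ranges that overlapped. The L-type genes Cacna1c (7.04 ± 2.13) and Cacna1d (5.22 ± 1.14) were lowest, and the T-type genes Cacna1g and Cacna1i stood at 8.17 ± 1.81 and 11.1 ± 2.05. All 8 had a negative difference at 24 weeks (median −0.36) and all 8 between the ages in Tg (median −0.39), with 0 past the threshold in either. Of all 17457 genes, 8153 were negative at 24 weeks and 8348 between the ages. At 15 weeks 6 of the 8 were positive, and their median was 0.02. Without Tg_24w_3 the medians at 24 weeks and between the ages were −0.23 (7 of 8 negative) and −0.24, and with the length offset −0.16 (7 of 8 negative) and −0.21. Without nTg_24w_1, 7 of the 8 were negative at 15 weeks (median −0.07).

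Cacna1e (chromosome 1, 154390731 to 154884501, GRCm38) measured 243, 217 and 229 CPM in 24-week Tg, 321, 337 and 288 in 15-week Tg, and 256, 318 and 330 in nTg. Each 24-week Tg library lay below each of the other 6. The mean was 230 ± 12.9 CPM in Tg at 24 weeks (SD, n = 3), against 301 ± 39.7 in nTg, a log2 difference of −0.39 ± 0.14 (SE, edgeR adjusted p = 0.319). Against Tg at 15 weeks it was −0.46 ± 0.14 (edgeR adjusted p = 0.220). With an offset for exon length these became −0.13 and −0.17.

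Cacna1h (chromosome 17, 25374285 to 25433783) codes for a T-type channel, which opens near the resting potential. It measured 66.9, 63.4 and 54.7 CPM in 24-week Tg, 91.2, 86.9 and 86.3 in 15-week Tg, and 64.1, 99.9 and 105 in nTg. The ages did not overlap in Tg, whereas nTg_24w_1 lay within the range of 24-week Tg. Its log2 difference was −0.54 ± 0.17 at 24 weeks (edgeR adjusted p = 0.286), −0.51 ± 0.17 between the ages in Tg (edgeR adjusted p = 0.235) and −0.35 ± 0.15 over both ages (edgeR adjusted p = 0.857). Over both ages it was −0.12 without nTg_24w_3, −0.49 within the 24-week batch and −0.19 within the 15-week batch, whose only control is nTg_15w_2. Without both Tg_24w_3 and nTg_24w_1 it passed the threshold at 24 weeks (−0.67, edgeR adjusted p = 0.0122), as did 107 of 17708 genes in all. Leaving out nTg_24w_1 takes away the nTg library that lay within the range of 24-week Tg, so this call is no separate support.

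Cacna1c, the main L-type pore gene of brain, measured 61.8, 63.8 and 21.1 CPM in 24-week Tg, 74.4, 84.1 and 68.2 in 15-week Tg, and 78.5, 79.3 and 83.3 in nTg. All 3 libraries of 24-week Tg lay below all others, and Tg_24w_3 stood far below the other two. The log2 difference from nTg was −0.71 ± 0.30 (edgeR adjusted p = 0.350), and −0.36 without Tg_24w_3. In Tg the difference between the ages was −0.29 ± 0.13 for Cacna1a, −0.31 ± 0.14 for Cacna1b and −0.41 ± 0.19 for Cacna1d. The edgeR adjusted p of these lay between 0.321 and 0.326, and with the length offset the differences were −0.12, −0.16 and −0.23.

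Auxiliary subunits did not share a direction: 3 of 7 were positive at 24 weeks (median −0.00) and 5 of 7 at 15 weeks (median 0.21), with 0 past the threshold. The β subunit gene Cacnb3 was the most abundant per length at 88.8 ± 10.6 TPM. It held 50.8% of the summed TPM of the 4 β genes, with 48.7% to 57.9% over the libraries. Cacnb3 measured 171, 178 and 163 CPM in 24-week Tg, 147, 164 and 156 in 15-week Tg, and 183, 167 and 156 in nTg, and the groups overlapped. Among the α2δ genes, of which Cacna2d1 and Cacna2d2 code for proteins that bind gabapentin, Cacna2d1 held 54.3%, Cacna2d3 33.9% and Cacna2d2 11.8%.

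Cacna2d2 (chromosome 9, 107399612 to 107529343) measured 29.2, 28.7 and 42.1 CPM in 15-week Tg, 32.0, 26.8 and 24.4 in 24-week Tg, and 23.5, 24.6 and 22.7 in nTg. Each 15-week Tg library lay above each nTg library, and Tg_15w_3 was the highest of all. The log2 difference at 15 weeks was 0.50 ± 0.17 (edgeR adjusted p = 0.9999), 0.43 within the 15-week batch and 0.29 without Tg_15w_3.

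Cacnb4 (chromosome 2, 52428320 to 52676831), a β subunit gene whose loss gives the lethargic mouse, was the gene of smallest p among the 47 between the ages in Tg. It measured 81.4, 54.5 and 64.2 CPM in 24-week Tg, 107, 107 and 85.02 in 15-week Tg, and 76.3, 92.2 and 79.9 in nTg. The ages did not overlap in Tg, and nTg lay across the gap between them. The log2 difference between the ages was −0.58 ± 0.16 (edgeR adjusted p = 0.215), and it ranged from −0.77 to −0.49 when 1 library was left out. It passed the threshold with DESeq2 and without a filter on low counts (edgeR adjusted p = 0.0269). Those settings called 262 and 701 of 34937 genes between the ages, against 6 of 17457 in the main test.

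The 3 γ subunits bind AMPA-type glutamate receptors and steer them to synapses. Cacng8, the form known best from hippocampus, held 53.3% of their summed TPM at 80.9 ± 10.9 TPM, and its share stayed between 50.7% and 55.5%. Cacng8 measured 91.4, 89.0 and 74.0 CPM in 24-week Tg, 85.6, 89.9 and 93.3 in 15-week Tg, and 88.2, 87.2 and 89.5 in nTg. The groups overlapped, and the lowest value was that of Tg_24w_3. Cacng3 was lowest and Cacng2, the stargazin gene, highest in that library, at 39.9 and 80.6 CPM. Group medians of the 3 genes lay between −0.08 and 0.00 in the 4 comparisons of groups.

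Of the pump genes, Atp2a2 codes for the SERCA pump that refills the endoplasmic reticulum, and the 4 Atp2b genes for pumps of the plasma membrane. Atp2a2 was the most abundant at 225 ± 44.7 TPM. It measured 614, 588 and 417 CPM in 24-week Tg, 681, 713 and 726 in 15-week Tg, and 577, 686 and 666 in nTg. The ages did not overlap in Tg, with Tg_24w_3 far below the rest. Its log2 difference between the ages was −0.39 ± 0.16 (edgeR adjusted p = 0.288), and −0.24 without Tg_24w_3.

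Among the plasma membrane pumps Atp2b1 held 50.2% of the summed TPM, Atp2b2 24.3%, Atp2b3 19.4% and Atp2b4 6.14%. Atp2b4 (chromosome 1, 133699457 to 133801041) measured 99.6, 109 and 102 CPM in 15-week Tg, 83.2, 88.1 and 51.0 in 24-week Tg, and 82.1, 77.0 and 78.6 in nTg. The 15-week Tg libraries lay above the other 6, without overlap. The log2 difference was 0.39 ± 0.18 at 15 weeks against nTg (edgeR adjusted p = 0.9999) and 0.42 within the 15-week batch. Between the ages it was −0.48 ± 0.18 (edgeR adjusted p = 0.249), and −0.29 without Tg_24w_3. Atp2b3 measured 115, 104 and 40.9 CPM in 24-week Tg, against 144, 110 and 120 in nTg, and Tg_24w_3 stood far below the rest.

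None of the 3 sodium-calcium exchangers passed the threshold, and their medians were 0.11 at 15 weeks and −0.07 at 24 weeks. Slc8a2 held 80.2% of their summed TPM (76.3% to 84.6%). It measured 345, 357 and 306 CPM in 24-week Tg, 302, 331 and 348 in 15-week Tg, and 295, 378 and 388 in nTg, and the groups overlapped. Slc8a1, the exchanger known best from heart, ranged from 177 to 309 CPM and Slc8a3 from 11.3 to 17.6 CPM.

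The 6 store release channels all had a negative difference at 24 weeks (median −0.48), over both ages (median −0.34) and between the ages in Tg (median −0.42), with 0 past the threshold. Of all 17457 genes, 8153, 8026 and 8348 were negative in the same order. At 15 weeks 4 of the 6 channels were negative and their median was −0.07. Without Tg_24w_3 the median at 24 weeks was −0.28, over both ages −0.21 and between the ages −0.27 (5 of 6 negative). With the length offset 5 of 6 were negative in each of these comparisons, with medians of −0.32, −0.23 and −0.18. Over both ages the median was −0.19 without nTg_24w_3. At 15 weeks it was −0.26 without nTg_24w_1 and 0.01 without nTg_15w_2. Ryr2 held 69.2% of the summed TPM of the ryanodine receptors, Ryr3 24.8% and Ryr1 5.996%. Itpr1 held 90.01% of that of the inositol trisphosphate receptors (83.9% to 92.8%).

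Ryr1 (chromosome 7, 29003344 to 29125179, minus strand) had the smallest p of the 47 genes at 24 weeks. It measured 6.07, 9.26 and 6.35 CPM in 24-week Tg, 15.8, 10.05 and 11.8 in 15-week Tg, and 7.95, 16.6 and 21.7 in nTg. Each 24-week Tg library lay below each 15-week Tg library, while nTg_24w_1 lay within the range of 24-week Tg. The means were 7.22 ± 1.77 CPM in Tg at 24 weeks and 15.4 ± 6.95 in nTg (SD, n = 3 each), a log2 difference of −1.09 ± 0.32 (edgeR adjusted p = 0.260). Within the 24-week batch it was −1.07, and over both ages −0.79 ± 0.29 (edgeR adjusted p = 0.857), which became −0.28 without nTg_24w_3. The difference at 24 weeks passed the threshold with DESeq2 and without a filter on low counts (edgeR adjusted p = 0.000118). Those settings called 198 and 559 of 34937 genes at 24 weeks, against 23 of 17457 in the main test. The difference also passed without both Tg_24w_3 and nTg_24w_1 (−1.34, edgeR adjusted p = 0.0221), as did 107 of 17708 genes in all. That setting takes away the nTg library within the range of 24-week Tg, so its call is no separate support. The difference was −0.77 without nTg_24w_3, −0.82 with the length offset and −0.57 with limma on log2(TPM + 1), where the pseudocount is close to the gene's level. Over its alternatives the adjusted p ranged from 0.000118 to 0.913.

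The start region of Ryr1 is shown because this gene had the largest difference of the 47 in either direction (RefSeq, GRCm38.p6, chr7:29125102-29125401, minus strand, 5′ to 3′).
Ryr1: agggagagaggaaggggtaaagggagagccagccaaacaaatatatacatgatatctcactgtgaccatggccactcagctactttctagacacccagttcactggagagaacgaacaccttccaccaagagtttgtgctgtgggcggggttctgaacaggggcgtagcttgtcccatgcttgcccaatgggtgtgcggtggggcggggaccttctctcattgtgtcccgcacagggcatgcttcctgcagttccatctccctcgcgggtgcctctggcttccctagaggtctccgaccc
Its 300 bases run from 250 before to 50 after the start, have a GC content of 56.7% and hold none of the motifs searched below.

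Ryr3 (chromosome 2, 112631355 to 113217096) measured 31.0, 34.7 and 27.7 CPM in 24-week Tg, 51.1, 42.9 and 39.4 in 15-week Tg, and 28.5, 56.5 and 57.5 in nTg. The order of libraries was like that of Ryr1 in that nTg_24w_1 stood with 24-week Tg. Its log2 difference was −0.61 ± 0.23 at 24 weeks (edgeR adjusted p = 0.335) and −0.42 ± 0.19 over both ages (edgeR adjusted p = 0.857), the latter −0.12 without nTg_24w_3. Ryr2, the most abundant ryanodine receptor gene here, measured 158, 155 and 119 CPM in 24-week Tg and 150, 202 and 209 in nTg. Its log2 difference was −0.37 ± 0.17 (edgeR adjusted p = 0.368), and −0.09 with the length offset.

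The 12 granule cell markers of the dentate gyrus were lowest in Tg_24w_3 too. They summed to 412, 460 and 285 CPM in 24-week Tg, 384, 396 and 394 in 15-week Tg, and 435, 492 and 513 in nTg, and none was at 0. The 8 CA1 markers summed to 637 CPM in Tg_24w_3 and to between 818 and 961 CPM in the other 8 libraries. The 8 CA3 markers were highest in Tg_24w_3, at 574 CPM against 342 to 464 CPM elsewhere. The part of these cell types in the differences of Ryr1, Ryr3 and Cacna1h was not tested.

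Itpr1 measured 245, 199 and 133 CPM in 24-week Tg, 279, 306 and 246 in 15-week Tg, and 301, 269 and 250 in nTg. All 24-week Tg libraries lay below all others, by a narrow margin for Tg_24w_1. The log2 difference at 24 weeks was −0.51 ± 0.20 (edgeR adjusted p = 0.335), −0.31 without Tg_24w_3 and −0.30 with the length offset. Itpr2, more often studied in astrocytes, ranged from 15.3 to 20.1 CPM over the 9 libraries.

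**Figure D3:**
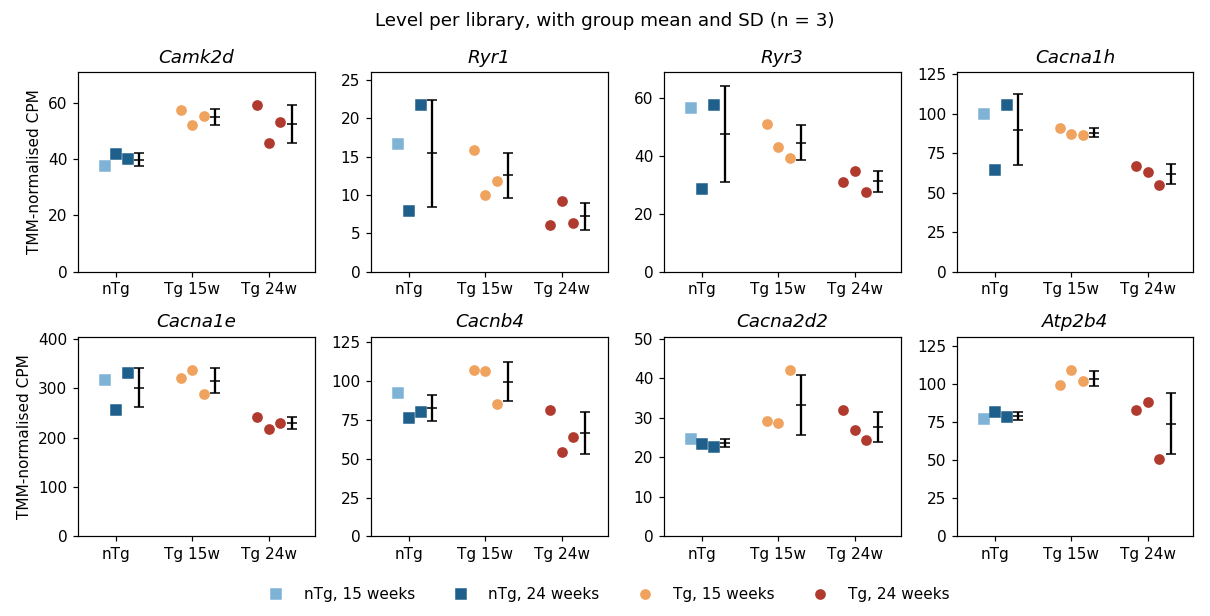
TMM-normalised CPM of 8 genes in each library (squares nTg, circles Tg), with group mean and SD (black bars, n = 3). Camk2d is higher in every Tg library, Cacna1e lower in every 24-week Tg library, and nTg_24w_1 lies among the 24-week Tg libraries for Ryr1, Ryr3 and Cacna1h.

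Calmodulin-dependent kinases had no shared direction, with 4 of 8 positive at 24 weeks, 3 of 8 at 15 weeks and 0 past the threshold. Camk2a, the α subunit of CaMKII, held 75.3% of the summed TPM of the 4 CaMKII genes and Camk2b, the β subunit, 20.5%. Camk2a measured 2719, 3202 and 2748 CPM in 24-week Tg, 2946, 3274 and 3212 in 15-week Tg, and 3485, 3182 and 3235 in nTg. The groups overlapped, and in Tg_24w_1 and Tg_24w_3 it stood lowest.

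Camk2d (chromosome 3, 126596302 to 126846326), the δ subunit gene of CaMKII known best from heart, was the gene of smallest p among the 47 over both ages and at 15 weeks. It measured 59.2, 45.7 and 53.1 CPM in 24-week Tg, 57.5, 52.1 and 55.4 in 15-week Tg, and 42.0, 37.5 and 40.2 in nTg. All 6 Tg libraries lay above all 3 nTg libraries, the lowest Tg value being 45.7 CPM and the highest nTg value 42.0. Tg averaged 53.8 ± 4.78 CPM over its 6 libraries and nTg 39.9 ± 2.27 over its 3 (mean ± SD), a 1.35-fold difference. On the log2 scale it was 0.43 ± 0.12 over both ages (edgeR adjusted p = 0.721), 0.46 ± 0.13 at 15 weeks (edgeR adjusted p = 0.9999) and 0.40 ± 0.13 at 24 weeks (edgeR adjusted p = 0.290). Within batches it was 0.33 at 24 weeks and 0.55 at 15 weeks, and it ranged from 0.36 to 0.48 over both ages when 1 library was left out. No alternative brought it past the threshold, with adjusted p from 0.284 to 1.0 over both ages. Camk2d held 0.446 ± 0.07% of the summed TPM of the CaMKII genes in Tg and between 0.295% and 0.318% in nTg.

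The start region of Camk2d is shown because this gene had the smallest p over both ages and, like Vsnl1, separated Tg from nTg at both ages (RefSeq, GRCm38.p6, chr3:126596701-126597000, plus strand, 5′ to 3′). Capitals mark the match to the NFAT core TTTCC.
Camk2d: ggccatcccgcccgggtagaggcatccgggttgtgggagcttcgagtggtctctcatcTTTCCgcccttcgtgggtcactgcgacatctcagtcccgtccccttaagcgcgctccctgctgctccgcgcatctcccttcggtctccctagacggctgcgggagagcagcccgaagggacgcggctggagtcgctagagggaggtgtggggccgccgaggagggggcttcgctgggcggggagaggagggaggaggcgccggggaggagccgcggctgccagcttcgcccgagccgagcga
It has a GC content of 70.3% and 31 CpG sites, and its start lies 649 bases inside the 5′ end of the gene in GENCODE M21.

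Promoters in RefSeq were matched for 35 of the 47 genes, and 3 motifs were searched on both strands as a description. The cyclic AMP response element TGACGTCA, bound by CREB, was in 0 of 35 and in 1.79% of all 32851 promoters of that length. Its shorter form TGACG, which the full element contains, was in 12 of 35 (34.3%) and in 20.8% of all. The NFAT core TTTCC, the binding letters of the factor that calcineurin activates, was in 17 of 35 (48.6%) and in 61.3% of all. GC content was 65.3% at the median of the 35 and 52.7% over all promoters. No binding or chromatin was measured, so a match is a description of letters only.

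Of the other kinases, Camk1 measured 44.2, 41.4 and 56.7 CPM in 24-week Tg and 35.9, 36.6 and 40.0 in nTg, without overlap. The log2 difference was 0.34 ± 0.15 (edgeR adjusted p = 0.378), and 0.19 without Tg_24w_3. Camkk2, which activates CaMKI, CaMKIV and AMPK, measured 75.2, 76.5 and 45.5 CPM in 24-week Tg, 82.5, 92.0 and 99.9 in 15-week Tg, and 97.8, 93.2 and 73.1 in nTg. Its difference at 24 weeks of −0.42 ± 0.19 (edgeR adjusted p = 0.384) was −0.22 without Tg_24w_3. Camk2g measured 134, 153 and 138 CPM in 24-week Tg and 125, 126 and 129 in 15-week Tg, where it lay below the range of nTg, 130 to 145 CPM. Camkk1 and Camk4, a nuclear kinase that phosphorylates CREB, had overlapping groups in every comparison.

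Calmodulin is represented by Calm2 and Calm3. The first 150 bases of each coding sequence (GENCODE M21, GRCm38) are shown because both genes code for the same protein, so that reads of the coding part could be assigned only by base differences. Capitals mark positions at which the pair differs.
Calm2: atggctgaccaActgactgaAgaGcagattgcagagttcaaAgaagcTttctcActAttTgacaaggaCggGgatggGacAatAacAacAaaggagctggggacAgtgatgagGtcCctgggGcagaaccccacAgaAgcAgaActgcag
Calm3: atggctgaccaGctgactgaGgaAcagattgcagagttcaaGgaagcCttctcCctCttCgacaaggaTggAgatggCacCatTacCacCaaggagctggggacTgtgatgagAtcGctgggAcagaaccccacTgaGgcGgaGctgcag
Over the 450 coding bases Calm3 differs from Calm2 at 78 positions (82.7% identity), both translate to the same 149 residues, and the longest stretch they share is 17 bases.

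Calm2 measured 2132, 1856 and 2001 CPM in 24-week Tg, 2749, 2263 and 1941 in 15-week Tg, and 2172, 2210 and 1973 in nTg, and the groups overlapped. Calm3 stood at 2018, 2167 and 1814 CPM, 1607, 1648 and 2306 CPM, and 2004, 1748 and 1744 CPM in the same order. Within Tg at 15 weeks the pair ran opposite: Tg_15w_1 had the highest Calm2 and the lowest Calm3 of the 9 libraries, and Tg_15w_3 the highest Calm3. Neither gene passed the threshold in any comparison.

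Calcineurin is a phosphatase of a catalytic and a regulatory subunit, and the catalytic gene Ppp3ca stood at 349 ± 29.6 TPM and Ppp3cb at 81.01 ± 11.99 TPM. The regulatory gene Ppp3r1 measured 862, 916 and 1048 CPM in 24-week Tg, 962, 953 and 980 in 15-week Tg, and 800, 924 and 882 in nTg. It lay above nTg in all 15-week Tg libraries and overlapped with nTg at 24 weeks. None of the 3 passed the threshold.

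Hpca codes for hippocalcin, a calcium sensor of hippocampal pyramidal cells, and measured 1547, 1834 and 1861 CPM in 24-week Tg, 1217, 1392 and 1808 in 15-week Tg, and 1624, 1537 and 1694 in nTg. The groups overlapped, and the 15-week Tg libraries spanned nearly the whole range. Vsnl1 (chromosome 12, 11325242 to 11436613) codes for visinin-like protein, a sensor that is also measured as a marker of neuronal injury. It measured 645, 615 and 613 CPM in 24-week Tg, 644, 614 and 627 in 15-week Tg, and 499, 593 and 541 in nTg. The 6 Tg libraries lay close together at 626 ± 15.0 CPM (SD, n = 6), above all 3 nTg libraries at 544 ± 47.2. The log2 difference at 15 weeks was 0.21 ± 0.13 (edgeR adjusted p = 0.9999), and 0.08 within the 15-week batch. Pan-neuronal markers summed to between 7275 and 7952 CPM in Tg and between 6549 and 7398 CPM in nTg, and their part in this difference was not tested.

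The library Tg_24w_3 stood apart over the 47 genes. It was the lowest of the 9 libraries for 23 of them and the highest for 8, and its median deviation from the other libraries was −0.37 on the log2 scale. Deviations of the other 8 libraries lay between −0.16 (nTg_24w_1) and 0.12 (Tg_15w_2). Tg_24w_3 also had the lowest total count, and the highest sums of striatal markers (298 CPM, against 113 to 168 CPM elsewhere) and of blood markers (786 CPM, against 145 to 402 CPM). Without it the median of the 47 genes at 24 weeks was −0.06 instead of −0.09, and between the ages in Tg −0.16 instead of −0.22. The part of neighbouring tissue, blood and depth in the values of this library was not tested.

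**Figure D4:**
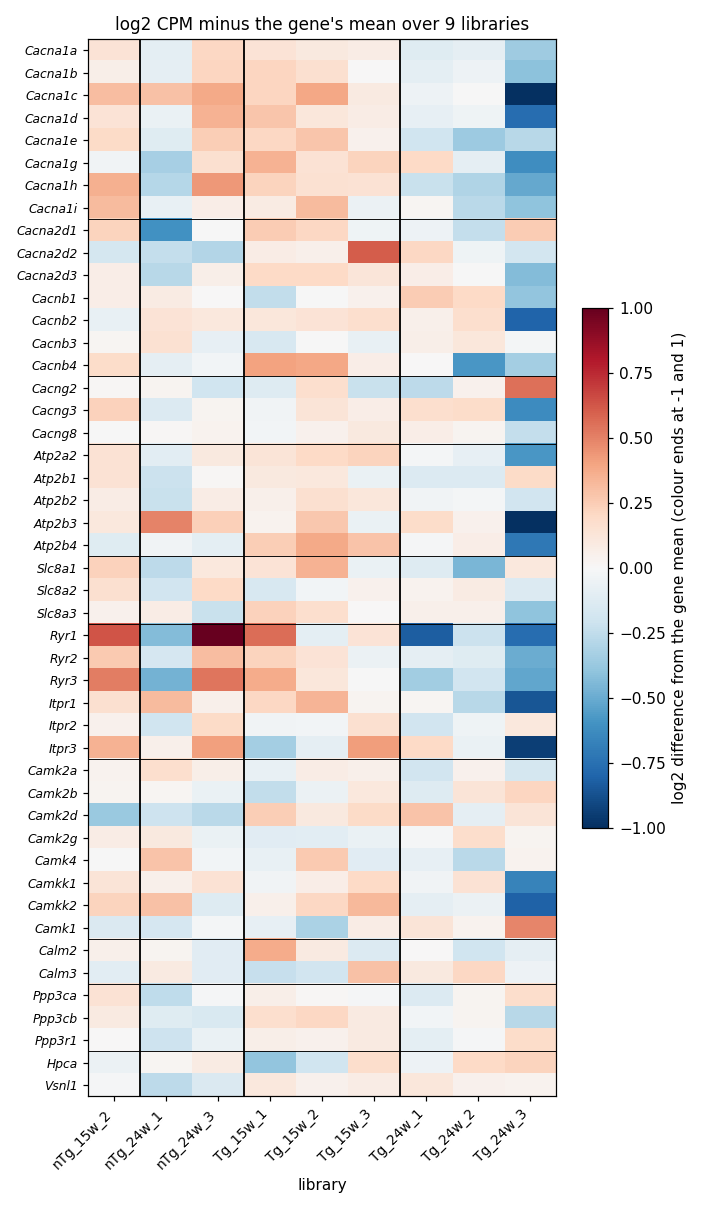
log2 CPM of each of the 47 genes minus that gene's mean over the 9 libraries (colour, ending at −1 and 1), with rows ordered by role and columns by group. Tg_24w_3 is blue for most channels, pumps and release channels and red for genes such as Cacng2 and Camk1, and nTg_24w_1 is blue for the 3 ryanodine receptor genes.

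Many of the 47 genes have a great exon length, here all annotated exons of a gene joined over its transcripts. The difference between groups varied with this length. Among them 18 have over 10 kb of exon, led by Ryr2 and Cacna1e. At 24 weeks the median log2 difference was −0.23 for these 18 and −0.06 for the 29 shorter ones. Between the ages in Tg it was −0.35, with 18 of 18 negative, against −0.12, with 19 of 29 negative. At 15 weeks the medians were 0.06 and 0.01. As a description over the 47 genes, which share libraries, Spearman's rho between exon length and difference was −0.42 at 24 weeks and −0.55 between the ages.

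The same direction was seen over all 17457 genes, where rho was −0.33 and −0.34 in these comparisons. Of these, the 1480 genes over 10 kb had medians of −0.17 and −0.20, and the 15977 shorter ones of 0.05 and 0.04. In both length classes and both comparisons the listed genes had the lower median. By library, well-expressed genes over 10 kb stood at −0.09, −0.17 and −0.27 in Tg at 24 weeks, 0.09, 0.13 and −0.04 in Tg at 15 weeks and 0.01, 0.09 and 0.03 in nTg, on the log2 scale. The test with an offset for length gave medians of the 47 genes of −0.04 at 24 weeks and −0.16 between the ages. Camk2d, at 22493 bases of exon, went against this pattern, and with the offset its difference at 24 weeks was 0.64 (edgeR adjusted p = 0.130). Why genes of great exon length were lower in 24-week Tg was not tested.

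**Figure D5:**
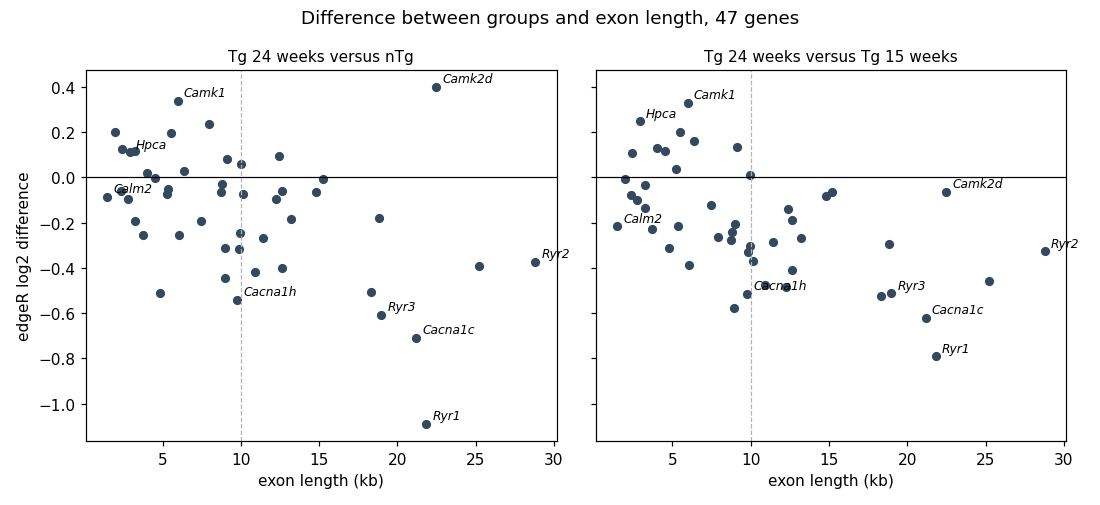
edgeR log2 difference (vertical) against exon length in kb (horizontal) for the 47 genes, at 24 weeks against nTg (left) and between the ages in Tg (right), with a dashed line at 10 kb. Points beyond the line lie mostly below 0, and Camk2d is the gene of greatest exon length with a positive difference in the left panel.

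The interaction of genotype and age, which rests on a single 15-week nTg library assumed to vary like the rest, gave a negative value in 31 of the 47 genes. Of all 19574 genes, 9786 were negative. All 8 pore subunits and all 6 release channels were negative, with medians of −0.32 and −0.13. Without nTg_24w_3, 24 of the 47 were negative, with a median of −0.0096 instead of −0.11. The pore subunits were then negative in 6 of 8 (median −0.11) and the release channels in 1 of 6 (median 0.13). Without Tg_24w_3, 25 were negative (median −0.03), with medians of −0.21 and −0.08 for the pore subunits and release channels. With the length offset 26 were negative (median −0.03), and these medians were −0.18 and 0.03. The lowest edgeR adjusted p among the 47 was 0.9999, so a difference of the genotype effect between the ages was not shown for any of them.

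Of 87 further genes of calcium signalling, 86 were found and 84 passed the filter, and none passed the threshold in any comparison. At an unadjusted p under 0.05, 4 of the 84 were lower and 0 higher over both ages, against 2.84% and 2.55% of all genes, with a median of 0.04. At 15 weeks there were 0 (median 0.02). At 24 weeks 6 were higher and 7 lower, against 7.68% and 5.34% of all genes (median 0.05). Between the ages in Tg 11 were higher and 7 lower, against 9.58% and 5.57% (median 0.05). The interaction gave 2 higher and 0 lower, against 0.93% and 1.15% (median 0.08). Jph1, which codes for a junctophilin that holds the endoplasmic reticulum close to the plasma membrane, measured 28.9, 31.3 and 31.5 CPM in 24-week Tg, 44.2, 49.8 and 41.8 in 15-week Tg, and 43.7, 53.4 and 47.1 in nTg. All 24-week Tg libraries lay below all others, with a log2 difference from nTg of −0.65 ± 0.13 (edgeR adjusted p = 0.104). Calb2, the calretinin gene, measured 57.1, 57.9 and 59.0 CPM in 24-week Tg, 28.4, 34.2 and 39.1 in 15-week Tg, and 39.9, 39.1 and 40.1 in nTg. It lay above both other groups throughout, by 0.55 ± 0.13 against nTg (edgeR adjusted p = 0.180) and 0.77 ± 0.13 against Tg at 15 weeks (edgeR adjusted p = 0.109). DESeq2 called Jph1 as lower and Calb2 as higher at 24 weeks against nTg, among 198 of 34937 genes in all. Between the ages in Tg it called Jph1, Calb2, Dapk1 and Orai1, among 262 of 34937.

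Dapk1, a death-associated kinase regulated by calmodulin, measured 85.7, 84.0 and 72.6 CPM in 24-week Tg and 113, 113 and 121 in 15-week Tg, with nTg between them at 97.3, 104 and 105 CPM. The log2 difference between the ages was −0.52 ± 0.12 (edgeR adjusted p = 0.213). Slc24a5, a potassium-dependent exchanger gene, lay below nTg in each Tg library, at 1.57 to 3.57 CPM against 3.78 to 5.24 CPM. Tmem38b, a store cation channel gene, ranged from 8.04 to 11.98 CPM in Tg and 11.03 to 14.8 CPM in nTg. At 15 weeks the genes of smallest p after Slc24a5 were Atp2a3, a SERCA pump gene, and Orai1, the pore of store-operated entry. Orai1 measured 11.6, 10.9 and 10.02 CPM in 15-week Tg, 14.1, 15.7 and 15.3 in nTg and 35.9 CPM in Tg_24w_3. DESeq2 was not run without Tg_24w_3, so the part of that library in the call of Orai1 was not tested.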

How the data were processed

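Hippocampal RNA of 9 libraries was measured by RNA sequencing, with extraction by the RareRNA kit (Genepure) and libraries by the KAPA mRNA HyperPrep kit (Roche), per the labels' protocols. Raw integer counts of reads for each gene were deposited by the authors and entered the tests without change. The authors also deposited TPM values, which equal counts divided by GENCODE M21 exon length and scaled per library (largest deviation 9.42e-07 percent); they served for levels between genes and for an alternative test. Tools listed, per the submitters' processing notes, were featureCounts 2.0.0, HISAT2 2.1.0, DESeq2 1.26.0, Trimmomatic 0.38 and CASAVA, on build GRCm38. No annotation release or strand setting is given in the sources used here. Coordinates are 1-based, from GENCODE M21.

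The main test was the two-sided quasi-likelihood test of edgeR 4.0.16 in R 4.3.3, with TMM factors and the filterByExpr filter. Tg against nTg over both ages had age as an additive term. The comparisons at 15 weeks, at 24 weeks and between the ages came from a single fit of 3 groups, with nTg pooled over ages, and the interaction came from a fit of 4 groups. The SE is the log2 difference divided by the root of the F statistic. The procedure was tested on simulated data. Alternatives were other size factors, DESeq2 1.42.0, no filter, limma 3.58.1 on log2(TPM + 0.1) and log2(TPM + 1), a replicate block, each library left out, Tg_24w_3 and nTg_24w_1 left out together, each batch alone, and a length offset.

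Of the 55536 genes, 2339 without a symbol, holding 1.88% of counts, stayed in library sizes and tests. The 47 genes, the lists and the markers were chosen with earlier results of these data known. Values per library are given for the 4 genes of smallest p in each of the first 4 comparisons and the gene of highest mean TPM in each role; for other genes, where their role is described. Of the wider list, the 3 genes of smallest p in each comparison were named.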

Additional observations from a re-analysis of the deposited data

Results flagged for a closer look

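In the 6 Tg libraries, 6 of the 47 genes had a lowest value that stood farther from the rest than Dixon's 95% criterion allows, and in each it was that of Tg_24w_3. Chance flags about 1 in 20 groups, but the 47 genes share libraries and the 6 libraries span both ages. Genes outside the 47 were not put to this rule, so no share over all genes can be set beside the 6. The L-type channel gene Cacna1c measured 21.1 CPM there, with the next value at 61.8. The α2δ gene Cacna2d3 measured 65.8 CPM (next 88.6), and the β subunit gene Cacnb2 28.8 CPM (next 52.1). The γ subunit gene Cacng3 measured 39.9 CPM (next 60.4), the membrane pump gene Atp2b3 40.9 CPM (next 97.0) and the kinase gene Camkk1 84.95 CPM (next 132). This library had the lowest total count and the highest striatal and blood marker sums, and their part in these values was not tested.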

How the results depend on the processing

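In the 4 comparisons other than the interaction, no log2 difference of a gene with an unadjusted p under 0.05, or among the 4 of smallest p, changed sign under any alternative. The median of the 47 at 15 weeks, 0.02, was −0.02 without nTg_24w_1, without both it and Tg_24w_3, and in the 15-week batch, and −0.0032 and −0.0031 with limma on TPM at pseudocounts of 0.1 and 1. In the interaction 36 of the 47 kept their sign without nTg_24w_3. With DESeq2 the genes past the threshold numbered 33 over both ages, 198 at 24 weeks, 262 between the ages in Tg and 1 in the interaction, and of the 47 genes 1 passed at 24 weeks and 2 between the ages. Without a filter on low counts they numbered 135, 65 (at 15 weeks), 559, 701 and 17, with 1 of the 47 over both ages and 3 each at 24 weeks and between the ages. With limma on TPM, at either pseudocount, 12 genes passed at 24 weeks and 2 between the ages, none of the 47; the median of all genes moved from 0.03 to −0.09 and from 0.02 to −0.08, and that of the 47 to −0.21 and −0.32, with a pseudocount of 0.1. Without Tg_24w_3 and nTg_24w_1 they numbered 3 over both ages, 107 at 24 weeks and 71 between the ages. At 24 weeks 3 of the 47 were among them, Ryr1, Ryr3 and Cacna1h, for which the omitted nTg_24w_1 lay within the range of 24-week Tg. These totals have unlike bases. Outside the interaction, 34937 genes were tested with DESeq2 and without a filter, and 17708 without the 2 libraries. The main test and limma had 17457, of which the main test called 23 at 24 weeks and 6 between the ages. The 24-week batch alone gave 0 genes at 24 weeks, and the length offset, chosen after seeing the data, gave 1 over both ages and 1 in the interaction. Leaving out 1 library gave 0 to 5 genes over both ages, 4 to 36 at 24 weeks, 1 to 14 between the ages and 0 to 1 in the interaction, and none of the 47 in any comparison. The cause of these shifts was not tested.

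Higher genes made up 39.1% of the calls at 24 weeks, 63.3% without a filter and 27.1% without the 2 libraries. Between the ages the share was 83.3%, 66.0% with DESeq2, 72.8% without a filter, 42.3% without the 2 libraries, 100% with TPM and 71.4% with the length offset. With the replicate number as a block, 1 gene passed over both ages, 15 at 24 weeks and 1 in the interaction, none of the 47. Deviations from group means correlated between −0.24 and 0.29 for samples of like number. Samples of unlike number were not compared, so sharing beyond the number was not tested. The interaction could not be fitted without nTg_15w_2.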
